A study of Mus musculus with 288 samples.

Results

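The data described here are the mRNA levels of the kidney in normoxia, compared between the subjective day and the subjective night. The subjective day comprised 12 libraries taken at 1:30, 4:30, 7:30 and 10:30, and the subjective night 12 libraries taken at 13:30, 16:30, 19:30 and 22:30, which together are 24 of the 288 libraries of the series. Levels are TPM, a measure of transcript abundance corrected for transcript length and library total. Kept were the 9179 of 35904 listed genes whose average over these 24 libraries reached 5 TPM. Just outside this limit lay Fam161a with a mean of 4.9993 TPM, and just inside it Abraxas1 with 5.0012 TPM. All mice were male wild-type C57BL/6J animals of 8 weeks. They had spent 7 days in room air and were sampled on the second day of constant darkness, every 3 hours, with 3 mice per time point and 1 poly(A) RNA library per mouse. Other groups of the series serve for comparison only: kidneys of mice exposed for 7 days to intermittent hypoxia (IH), in which inhaled oxygen drops again and again, and livers of mice in normoxia, with 24 libraries each.

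The circadian clock is a feedback loop of transcription. The activators CLOCK and BMAL1 (the product of Arntl) bind E-box sequences and switch on the period, cryptochrome and REV-ERB genes, whose products then repress the activators or their targets. ROR proteins activate, and REV-ERB proteins repress, genes with a shared response element, among them Arntl and Nfil3, and the kidney is known for daily rhythms of filtration and of the reabsorption of salt, phosphate, glucose and amino acids along its tubule.

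Some libraries stood apart from the rest. The libraries labelled 1:30 replicate 1 and 4:30 replicate 1 were nearly the same. The spread between them was 1.51 times the counting variance, against 5.81 or more in the other 275 pairs, and their median absolute log2 difference was 0.0304, against at least 0.077 in the other pairs. By their labels both belong to the day, and they were averaged and counted as 1 sample, so that the day had n = 11 and the night n = 12. The median correlation with the other libraries was 0.93 in 7:30 replicate 2 and 0.955 in 19:30 replicate 1. The predicted processed pseudogene Gm19220 took 36.3% of all TPM in 1:30 replicate 2, and the 3 libraries in which it was highest were all day libraries. Because TPM sums to the same total in each library, values were scaled by the median of ratios between libraries, and levels below are scaled TPM. The averaged near-identical pair had 48.1 for Dbp, 4.35 for Arntl and 26.7 for Nr1d1. Means without the pair were 49.2, 4.05 and 23.0 at 4:30, and 12.3, 10.1 and 13.4 at 1:30. Per1, at 6.29 in the pair, was above both means, 2.45 and 2.42. Which of the 2 time labels holds for the pair was not tested. Markers of the adrenal cortex, which lies against the kidney, summed to between 15.7 and 138 TPM as deposited in 6 libraries, 2 of the day and 4 of the night, and to at most 7.27 TPM in the other 18. The 6 include replicates 1 and 2 of 10:30 and of 22:30, so leaving them out also thins these time points. The defining markers of the kidney's segments were present: those of the proximal tubule had a median sum of 50122 scaled TPM in the day and 54209 in the night, and 8 of 8 were above the limit of 5 TPM. Most of this sum was Kap, with a mean of 46290 TPM as deposited, while the median log2 difference of the 8 markers was 0.12. Differences in cell makeup and in RNA per cell cannot be told apart in such tissue samples.

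The day and the night differed in a small group of genes. The limma test with Benjamini-Hochberg adjustment over all 9179 genes called 43 genes, which had an adjusted p of at most 0.05 together with a change of at least 1.5 times. Of these, 15 were higher in the day (0.163% of the genes tested) and 28 were lower (0.305%). Without the fold limit, 289 genes were higher (3.15%) and 307 lower (3.34%), so that most differences that passed the test were small. The median absolute log2 difference over all genes was 0.091, with a median standard error (SE) of 0.071. The groups did not overlap at all in 3 genes higher in the day (0.0327%), which were Nr1d1, Slc6a19 and Slc26a6, and in 4 genes lower in the day (0.0436%), among them Cry1, Hddc3 and Cpsf6. On TPM as deposited, without this scaling, the median of all genes shifted to -0.11 on the log2 scale, and the split became 30 higher against 978 lower. Of the 43 genes, 38 were still called there.

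**Figure D1:**
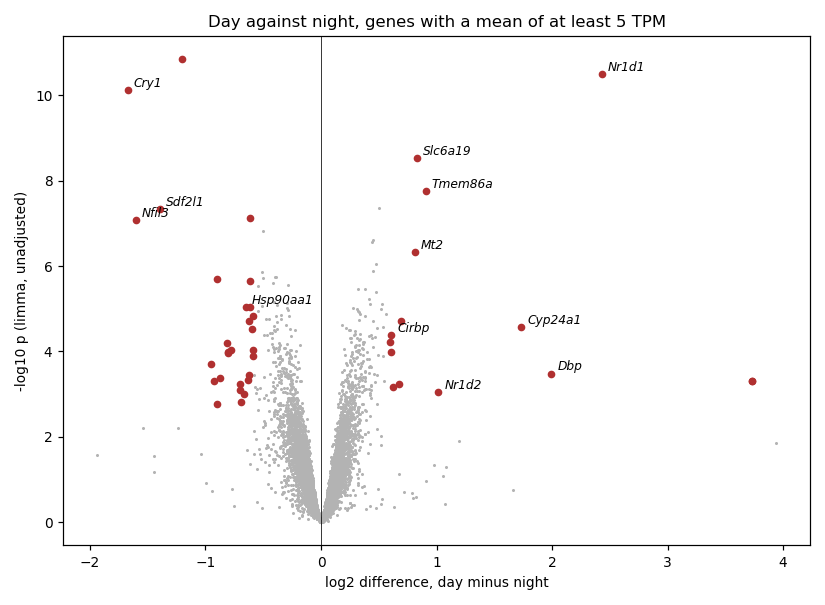
Each point is 1 of the 9179 genes. The x axis is the log2 difference of the day minus the night and the y axis the negative log10 of the unadjusted limma p. The 43 called genes are red, with Nr1d1 (2.43), Dbp (1.99) and Cyp24a1 (1.73) to the right and Cry1 (-1.67), Nfil3 (-1.60) and Sdf2l1 (-1.39) to the left.

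Promoter sequences of Cry1 and Nfil3 are shown because the clock's activators and repressors act through short motifs there and these windows hold a match. The windows of Nr1d1, Nr1d2 and Dbp, also called, held none of the motifs searched. Windows of 300 bases, 250 before and 50 after the start, came from RefSeq (GRCm38.p6) and were found for 7292 of the tested genes, with 9391 windows. The E-box CACGTG was in 10.4% of these windows, the D-box TTATGTAA in 0.586% and the core of the ROR element, TAGGTCA, in 1.99%, each searched on both strands. Of 41 windows of called genes, 3 held the E-box, 0 the D-box and 2 the ROR core. A match is a description of letters only. Below, capitals mark the E-box in Cry1 (chr10:85185005-85185304, minus strand, starting 60 bases before the start) and the ROR core, read on the opposite strand, in Nfil3 (chr13:52980990-52981289, minus strand, starting 12 bases before the start).
Cry1: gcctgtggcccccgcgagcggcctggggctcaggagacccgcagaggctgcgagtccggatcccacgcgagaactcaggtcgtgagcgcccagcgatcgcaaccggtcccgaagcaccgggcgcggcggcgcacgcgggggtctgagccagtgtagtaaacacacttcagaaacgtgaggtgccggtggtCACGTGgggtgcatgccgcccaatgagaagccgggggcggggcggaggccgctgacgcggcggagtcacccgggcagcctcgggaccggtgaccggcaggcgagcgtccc
Nfil3: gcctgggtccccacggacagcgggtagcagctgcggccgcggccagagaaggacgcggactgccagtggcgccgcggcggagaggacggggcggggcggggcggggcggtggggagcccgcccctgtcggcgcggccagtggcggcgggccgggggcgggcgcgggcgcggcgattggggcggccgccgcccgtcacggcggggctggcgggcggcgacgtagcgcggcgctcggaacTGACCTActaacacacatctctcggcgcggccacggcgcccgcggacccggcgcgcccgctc

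Some of the clearest differences were in the clock's own genes, while others of these genes did not pass. Among the activators, Arntl ran from 0.471 to 10.7 in the day and from 1.32 to 14.8 in the night. Its medians were 1.85 and 7.70, and its log2 difference of -1.23 ± 0.42 (SE) did not pass (adjusted p = 0.070 by limma). Arntl was highest at 22:30, with a mean of 14.1, and lowest at 10:30, with 0.959 (time point means leave out the near-identical pair). At 1:30, which counts as day, its mean was still 10.1. Clock (log2 difference -0.20 ± 0.07) and Rora (0.17 ± 0.09) also did not pass. Of the 4 tested members of the activator list, 1 passed and was called lower in the day. Npas2 and Rorb had mean TPM under 5 and were not tested. Npas2, a relative of Clock, had means of 6.69 at 22:30 and 0.386 at 10:30.

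Among the repressors, Nr1d1, which encodes REV-ERB alpha (GRCm38, chr11:98767932-98775333), lay between 10.1 and 26.7 in the day and between 1.37 and 6.44 in the night. The medians were 18.4 and 2.34, no night sample reached a day sample, and Nr1d1 was 5.39-fold higher in the day (log2 difference 2.43 ± 0.22, adjusted p = 1.5e-07 by limma). Nr1d2, which encodes REV-ERB beta, was 2.02-fold higher in the day (1.02 ± 0.27, adjusted p = 0.024 by limma), with overlapping groups. Cry1, a cryptochrome that represses CLOCK and BMAL1 (chr10:85131700-85185064), was opposite. It lay between 1.22 and 5.33 in the day and between 5.71 and 10.8 in the night, again without overlap, and was 3.19-fold higher in the night (-1.67 ± 0.16, adjusted p = 2.3e-07 by limma). Cry2, its paralog, had medians of 5.68 and 5.54 and a log2 difference of 0.01 ± 0.12. Per2 and Bhlhe40 did not pass, with log2 differences of -0.25 ± 0.17 and -0.16 ± 0.15. Both were highest at 13:30, with means of 13.2 and 44.3, next to the border between the phases. Per1, Per3, Ciart and Bhlhe41 had mean TPM under 5 and were not tested.

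The clock's output factors of the bZIP family split in the same way. Dbp, an activator of D-box genes, ran from 8.82 to 144 in the day, with a median of 71.2, and from 4.01 to 61.9 in the night, with a median of 11.5. It was 3.98-fold higher in the day (1.99 ± 0.48, adjusted p = 0.014 by limma), with overlapping groups, and its mean went from 105 at 7:30 to 4.36 at 22:30. Nfil3, which represses D-box genes (chr13:52967209-52981073), lay between 1.54 and 12.1 in the day and between 9.20 and 24.0 in the night, and was 3.04-fold higher in the night (-1.60 ± 0.22, adjusted p = 8.6e-05 by limma). The related Tef (0.48 ± 0.16, adjusted p = 0.072 by limma) and Hlf (0.16 ± 0.12, adjusted p = 0.41) did not pass. Neither Dbp nor Nr1d2 kept its call when some time points or replicates were left out: without 22:30 the log2 difference of Dbp was 1.47 (adjusted p = 0.089 by limma) and that of Nr1d2 0.66 (adjusted p = 0.12), and without 7:30 they were 1.68 (adjusted p = 0.11) and 0.90 (adjusted p = 0.15). Without replicate 1 they were 1.71 (adjusted p = 0.20) and 0.90 (adjusted p = 0.21). Without the 6 libraries with adrenal transcripts both also missed the threshold, with adjusted p of 0.096 and 0.13 by limma. This also removed replicates 1 and 2 of 22:30, so this removal cannot tell adrenal tissue from time of day. The part of adrenal tissue in these values was not tested.

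**Figure D2:**
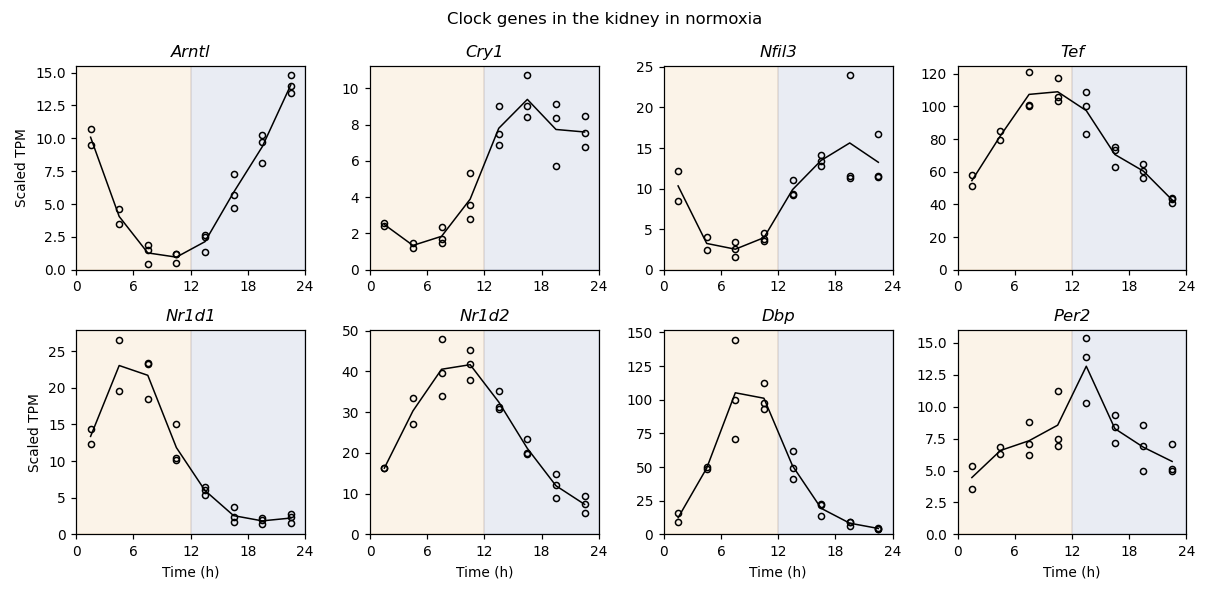
Scaled TPM of 8 clock genes (y axis) against time in hours (x axis) in the kidney in normoxia. Circles are single libraries, lines join the time point means, the day is shaded orange and the night blue, and the near-identical pair is left out. Nr1d1 peaks at 4:30 and Dbp at 7:30, Tef at 10:30, Cry1 at 16:30, Nfil3 at 19:30, Arntl at 22:30 and Per2 at 13:30.

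None of the 11 tested kinases and ubiquitin enzymes that set the stability of clock proteins passed, against 3.15% and 3.34% of all genes. Their log2 differences ran from -0.06 in Csnk1d, a kinase of PER proteins, to 0.15 in Gsk3b. Usp2, a deubiquitinase, had time point means of 29.8 at 22:30 and 59.4 at 13:30, with a log2 difference of 0.08 ± 0.16.

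Beyond the clock, and leaving aside predicted genes and pseudogenes, the largest difference higher in the day was in Cyp24a1, the enzyme that inactivates vitamin D (chr2:170482708-170497145). Its mean was 28.8 ± 17.0 in the day (SD, n = 11) and 8.59 ± 4.98 in the night (SD, n = 12), with medians of 23.3 and 8.28 and overlapping groups, and it was 3.33-fold higher in the day (1.73 ± 0.34, adjusted p = 0.0038 by limma). The near-identical libraries held 69.0 and 69.5 TPM as deposited, the highest of all 24. Without replicate 1 the log2 difference was 1.41 (adjusted p = 0.077). Slc6a19, the carrier of neutral amino acids in the proximal tubule (chr13:73679745-73704865), lay between 63.4 and 109 in the day and between 33.4 and 61.0 in the night, without overlap (0.83 ± 0.09, adjusted p = 6.7e-06 by limma). Mt2, a metallothionein that binds zinc and copper, was 1.75-fold higher in the day (0.81 ± 0.12, adjusted p = 0.00032), and its neighbour Mt1 was 0.54 ± 0.11 higher on the log2 scale (adjusted p = 0.0038). Tmem86a, an enzyme that breaks down lysoplasmalogens, was 1.87-fold higher (0.90 ± 0.11, adjusted p = 3.2e-05), and Gjb2, a gap junction protein, 1.62-fold (0.70 ± 0.13, adjusted p = 0.0030). Erbb3 (0.67 ± 0.17) and Bcat1 (0.62 ± 0.16), a receptor kinase and an enzyme of branched-chain amino acid breakdown, were called as well, but each lost its call under at least 9 of the alternatives.

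Lower in the day, Sdf2l1, a protein of the endoplasmic reticulum, lay between 7.12 and 21.9 in the day and between 19.2 and 59.5 in the night, and was 2.62-fold higher in the night (-1.39 ± 0.18, adjusted p = 6.1e-05 by limma). The mean at 16:30 was 54.6, against 9.10 at 7:30. Tsc22d3, a target of glucocorticoids also known as GILZ, was 1.75-fold higher in the night (-0.81 ± 0.18, adjusted p = 0.0070). Sgk1, a kinase induced by corticosteroids that raises sodium reabsorption, was just past the fold limit (-0.59 ± 0.13, adjusted p = 0.0067), and 9 of the alternatives lost its call. Ddit4, another glucocorticoid target, was also lower in the day (-0.49 ± 0.10, adjusted p = 0.0046), and of the 16 tested members of that list 4 were lower and 2, Mt1 and Mt2, higher, beside 3.34% and 3.15% of all genes. Thrsp, a gene of fat synthesis (-0.87 ± 0.22), Rhobtb1 (-0.80 ± 0.18) and Ier3, an immediate early gene (-0.66 ± 0.18), were also lower in the day, and 10 of the alternatives lost the call of Ier3. Of 13 tested immediate early genes, Ier3 was the 1 that passed, beside 3.34% lower among all genes. The summed fat markers had a median of 747 scaled TPM in the day and 882 in the night, with 0 of 6 tested members passing, and their part in the values of Thrsp was not tested. Without the 6 libraries that held adrenal transcripts, Thrsp (-0.86, adjusted p = 0.063) and Rhobtb1 (-0.68, adjusted p = 0.063) missed the threshold by limma. Here too, replicates 1 and 2 of 22:30 were removed, so this removal cannot tell adrenal tissue from time of day, and the part of adrenal tissue was not tested. Nat8f5 (-0.93 ± 0.23) and the histone gene H3c15 (-0.90 ± 0.15) belong to families of near-identical copies, and their values are uncertain. The call of Nat8f5 was lost under 9 of the alternatives.

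Predicted or pseudogene names are carried by 9 called genes. Of these, Gm10359 and Gm12671 had the same value within 0.1 TPM in all 24 libraries and were above 1 TPM in 10 day and 2 night libraries. Their reads cannot be told apart, and their fitted log2 difference of 3.73 depends on the pseudocount.

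Among the chaperones of the cytosol, 13 of 27 tested members were lower in the day, 0 were higher and 14 did not pass, against 3.34% lower among all genes, and their median log2 difference was -0.40, against -0.01 over all genes. Hsp90aa1, the inducible HSP90, lay between 193 and 327 in the day and between 205 and 458 in the night, and was 1.57-fold higher in the night (-0.65 ± 0.12, adjusted p = 0.0023 by limma). Hspb1 (-0.62 ± 0.12, adjusted p = 0.0030), Chordc1 (-0.62 ± 0.11, adjusted p = 0.0023) and Ahsa2 (-0.61 ± 0.10, adjusted p = 0.00098), a small heat shock protein and a pair of HSP90 partners, were called too. Each of these 4 had its highest time point mean at 16:30. Cirbp, an RNA-binding protein induced by cold, was opposite, with medians of 37.8 in the day and 23.6 in the night (0.61 ± 0.12, adjusted p = 0.0045). Rbm3 (-0.06 ± 0.11) and Srsf5 (0.23 ± 0.10), the other members of that list, did not pass, and 10 of the alternatives lost the call of Cirbp. Among 17 splicing factors and their kinases 3 were lower in the day, beside 3.34% of all genes, with Tra2a at -0.55 ± 0.09 (adjusted p = 0.0011), Srsf6 at -0.27 ± 0.06 (adjusted p = 0.0067) and Srsf10 at -0.24 ± 0.07 (adjusted p = 0.031). The number of chaperones lower in the day was 5 without 7:30, 7 without 16:30, 2 without replicate 3 and 7 without the libraries with adrenal transcripts, while 0 were higher in any of these. After IH, in a joint limma fit of both treatments, Hspb1 (-0.73, adjusted p = 0.0022) and Ahsa2 (-0.53, adjusted p = 0.015) passed as well, and Hsp90aa1 (-0.52, adjusted p = 0.097) did not.

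Among the chaperones of the endoplasmic reticulum, 9 of 25 tested members were lower in the day, 0 were higher and 16 did not pass, against 3.34% lower among all genes. Their median log2 difference was -0.24. Hspa5, the main HSP70 of this compartment, lay between 170 and 338 in the day and between 179 and 537 in the night, and was 1.55-fold higher in the night (-0.63 ± 0.16, adjusted p = 0.016 by limma). Manf, a secreted stress protein, had medians of 101 and 153 (-0.78 ± 0.17, adjusted p = 0.0067), and Creld2 of 31.6 and 47.2 (-0.82 ± 0.17, adjusted p = 0.0059). The time course again led to 16:30, where Hspa5 had a mean of 527, against 183 at 7:30. Without 16:30 the count was 3, without 7:30 it was 1, and the log2 difference of Hspa5 was -0.44 (adjusted p = 0.10) and -0.52 (adjusted p = 0.14). Atf4 (-0.44 ± 0.11, adjusted p = 0.014) and Ddit3 (-0.46 ± 0.13, adjusted p = 0.031), factors of the stress response, were 2 of 10 tested members of their list that were lower, beside the same 3.34%.

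**Figure D3:**
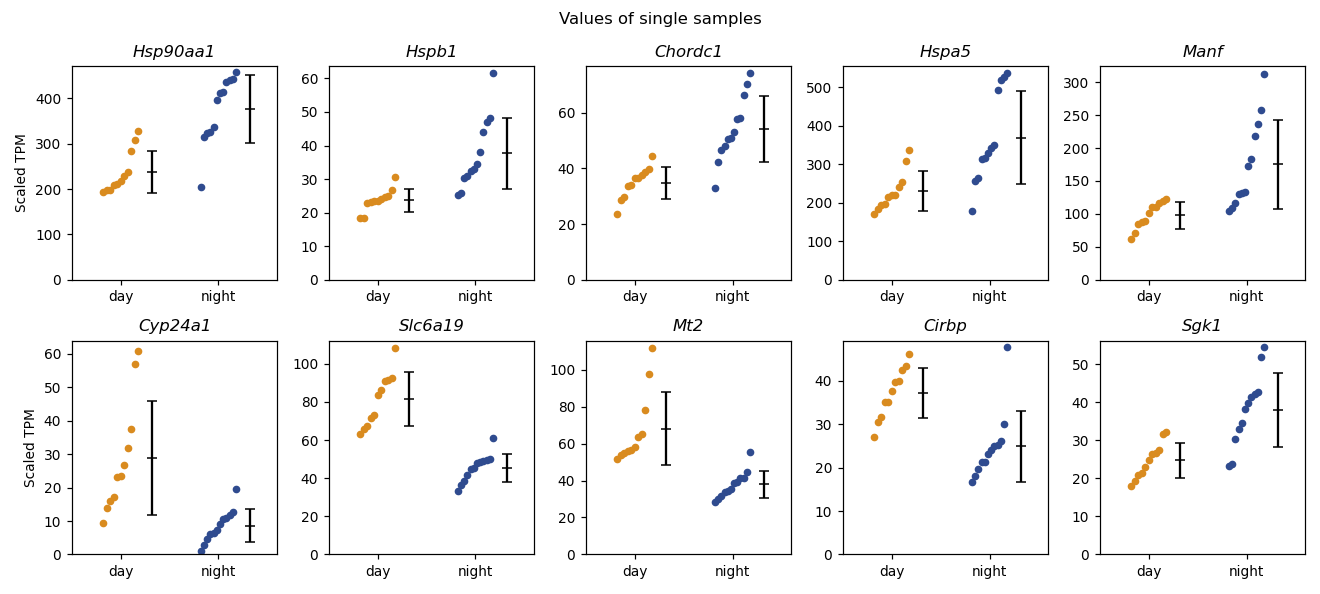
Scaled TPM of 10 called genes (y axis) in the 11 samples of the day (orange) and the 12 of the night (blue). Points are sorted by value within a group, and bars show the mean and SD. Slc6a19 does not overlap between the groups, while Hsp90aa1, Hspa5 and Cirbp overlap.

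The carriers of the proximal tubule for glucose, phosphate and anions were higher in the day in 6 of 17 tested members and lower in 0, beside 3.15% and 3.34% of all genes. Their median log2 difference was 0.21, and none reached 1.5-fold. Slc26a6, an anion exchanger for oxalate and chloride, had means of 9.02 and 6.20 without overlap (0.50 ± 0.07, adjusted p = 6.1e-05 by limma). Slc2a2, the glucose transporter GLUT2, was 0.48 ± 0.10 higher on the log2 scale (adjusted p = 0.0039), Slc5a8, a carrier of lactate and other monocarboxylates, 0.40 ± 0.09 (adjusted p = 0.0069) and Slc20a2, a phosphate carrier, 0.32 ± 0.06 (adjusted p = 0.0024). On TPM as deposited 2 of the 17 passed, and without replicate 1 or replicate 3 also 2. The proximal tubule markers themselves had a median log2 difference of 0.12, with 0 of 8 passing; the part that cell makeup has in these differences was not tested.

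Of 33 tested members for salt transport, 2 were higher and 1, Sgk1, lower, beside 3.15% and 3.34% of all genes. Slc9a3, the sodium-proton exchanger NHE3 of the proximal tubule, was 0.27 ± 0.06 higher in the day (adjusted p = 0.0075 by limma), and Klhl3, part of the ubiquitin ligase that controls WNK kinases, 0.19 ± 0.06 (adjusted p = 0.043). Of 12 members for water and urea, Avpr2, the vasopressin receptor of the collecting duct, was lower in the day (-0.41 ± 0.08, adjusted p = 0.0038), as was the urea transporter Slc14a2 (-0.35 ± 0.10, adjusted p = 0.036), while Aqp7 was higher (0.25 ± 0.07, adjusted p = 0.031). The most abundant member, Aqp1, had medians of 368 and 430 and did not pass (-0.18 ± 0.09, adjusted p = 0.21). Of 9 members of the renin-angiotensin system, Agtr1a, the angiotensin receptor, was 0.22 ± 0.06 higher in the day (adjusted p = 0.040).

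Metabolic lists held few genes that passed, and their counts stand beside 3.15% higher and 3.34% lower among all genes. Cpt1a, the entry step of fatty acid oxidation in mitochondria, was 0.42 ± 0.10 higher in the day (adjusted p = 0.011 by limma), and Pdk2, which slows pyruvate oxidation, 0.34 ± 0.08 (adjusted p = 0.015). Srebf1, a regulator of fat synthesis (-0.47 ± 0.10, adjusted p = 0.0045), and Scd2, a desaturase (-0.45 ± 0.09, adjusted p = 0.0029), were lower. Of 36 tested members for fatty acid oxidation 1 was higher and 1 lower, and of 23 for fatty acid synthesis 1 was higher and 2 lower. Of 27 members for cholesterol 3 were lower, among them Insig1 (-0.37 ± 0.08, adjusted p = 0.0099), a brake on its synthesis. The fat markers named above moved in the same direction, and their part in these values was not tested. Of 12 members for gluconeogenesis, 20 organic ion and drug transporters, 14 for the cell cycle, 9 interferon-stimulated genes and 12 for extracellular matrix, 0 passed. Beside 3.34% of all genes, 2 of 77 ribosomal proteins were lower, with a median log2 difference of -0.20, and 2 of 36 complex I subunits, with a median of -0.19. Abundant proximal tubule genes did not pass: Slc34a1, the main phosphate carrier, had medians of 1875 and 1637 (0.14 ± 0.10, adjusted p = 0.40), Slc22a12, the urate carrier, 1099 and 1040 (0.06 ± 0.07, adjusted p = 0.57), and Fbp1, an enzyme of gluconeogenesis, 735 and 717 (0.08 ± 0.09, adjusted p = 0.59).

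**Figure D4:**
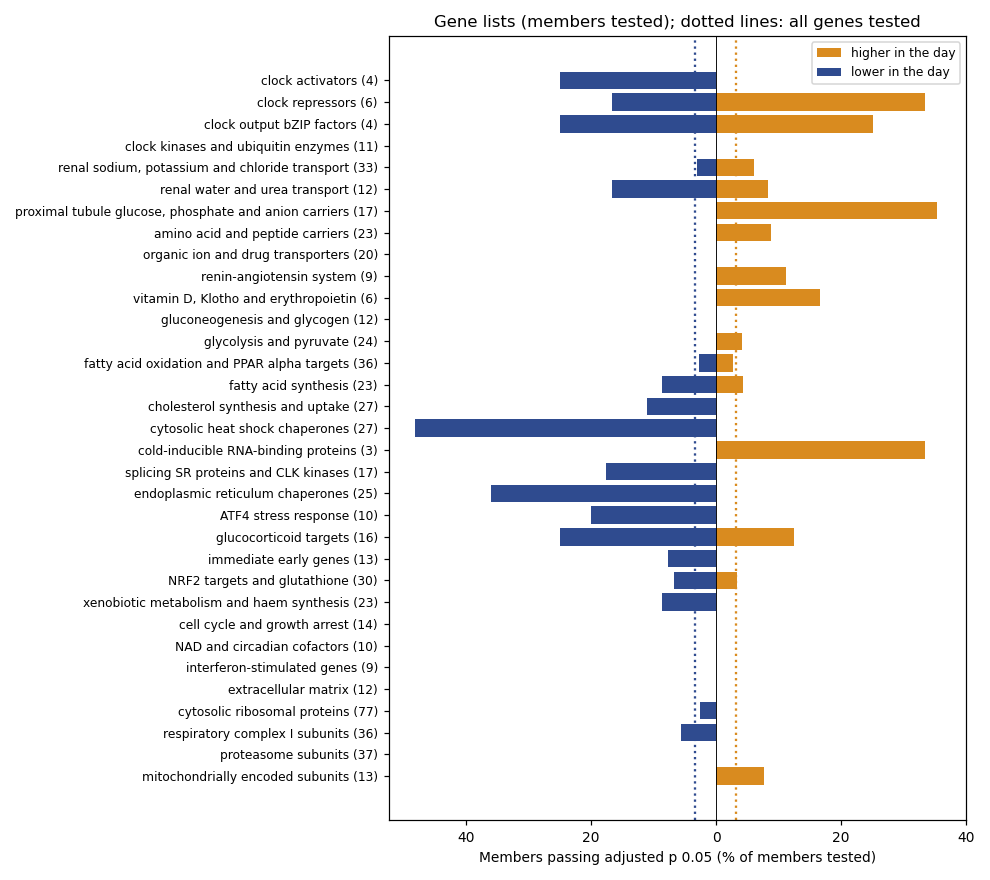
Share of the tested members of each list (number tested in parentheses) that passed an adjusted p of 0.05, higher in the day to the right and lower to the left. Dotted lines give the shares over all genes tested, 3.15% and 3.34%. The cytosolic chaperones reach furthest to the left, with 13 of 27.

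The comparison with IH asks whether exposure altered the difference between day and night in the kidney. By an interaction term in limma, 0 of 8996 genes passed (0%), and the lowest adjusted p by limma was 0.9999. At an unadjusted p of 0.05 there were 133 genes, 1.48% of those tested, which is below the 5% that this threshold gives where nothing differs. The cause of this deficit was not found, so the count of 0 says little about a difference. The median SE of the interaction was 0.12 on the log2 scale. A p that misses the threshold does not show that the differences are alike. In the joint fit of both treatments, 0.634% of the 8996 genes were higher and 0.645% lower in the day after IH at an adjusted p of 0.05. That fit uses 1 spread per gene for both treatments. The 3.15% and 3.34% in normoxia came from a fit of those libraries alone over 9179 genes, so these shares are not like measures. Of the 43 genes called in normoxia, 38 had the same direction after IH, in libraries that played no part in choosing them. Of these, 18 passed there, but each p uses a spread shared with the normoxia libraries on which the genes were chosen. Nr1d1 had a log2 difference of 2.51 after IH (adjusted p = 1.9e-09), Cry1 of -1.65 (adjusted p = 7.1e-08) and Slc6a19 of 0.72 (adjusted p = 0.00098). Hspa5, at -0.56 (adjusted p = 0.16), and Cyp24a1, at 1.23 (adjusted p = 0.13), did not pass there.

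The comparison with the liver asks where the kidney's day and night differ from those of another organ. Of the 6616 genes that reached the limit of 5 TPM in both organs, 54 passed the interaction test (0.816%), 27 with a larger and 27 with a smaller day minus night difference in the kidney. In the joint fit of both organs over these genes, 5.53% were higher and 4.82% lower in the day in the liver. That fit uses 1 spread per gene for both organs and also gave the liver p-values below. The kidney shares of 3.15% and 3.34% came from a fit of the kidney alone over 9179 genes, so they are not like measures. Casp6, a caspase, had a log2 difference of 0.01 in the kidney and 0.95 in the liver (kidney minus liver -0.94 ± 0.12, adjusted p = 4.3e-06 by limma). Junb, an immediate early transcription factor, had 0.19 and 1.26 (-1.07 ± 0.19, adjusted p = 0.0024). Fmo5, a flavin monooxygenase, had 0.24 and -0.73 (0.97 ± 0.20, adjusted p = 0.0093). Of the 43 genes called in the kidney, 30 were tested in both organs, 29 of them had the same direction in the liver and 15 passed there. Each p for the liver uses a spread shared with the kidney libraries on which these genes were chosen. The clock genes Nr1d1 (2.95), Cry1 (-1.54) and Nr1d2 (1.14) passed in the liver. Dbp (1.72, adjusted p = 0.11 by limma) and Nfil3 (-0.56, adjusted p = 0.16), also called in the kidney, did not pass there. Without any 1 replicate number 2 or 3 genes passed, against 46 without both near-identical libraries. The organs were taken from mice of the same groups and may come from the same animals, so the liver values are not independent of the kidney's. With same-numbered libraries of a time point taken as 1 animal, 56 genes passed.

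**Figure D5:**
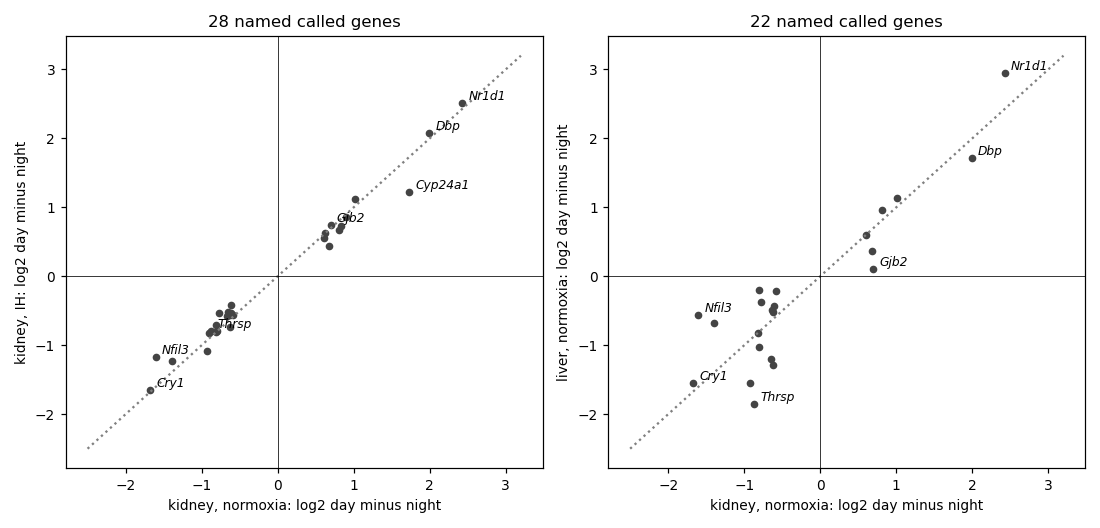
Log2 difference of the day minus the night in the kidney in normoxia (x axis) against the kidney after IH (left, 28 genes) and the liver in normoxia (right, 22 genes) for the named genes called in the kidney. The dotted line marks equal differences, and the genes were chosen on the x axis values.

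The number of genes detected did not separate the phases. It was 21715 ± 407 in the day (SD, n = 11) and 21626 ± 638 in the night (SD, n = 12; p = 0.71, 2-sided permutation test).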

How the data were processed

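The deposited values are TPM, which the authors made with Kallisto against the mouse transcriptome of Ensembl release 102 and summed to genes; they ran DESeq2 on estimated counts, which are not analysed here. TPM does not carry read depth, which the study gives for the series as a whole and which was not used here. The step of 1 read on a transcript of 1 kb lay between 0.0142 and 0.0281 TPM over the libraries, estimated from low values. TPM was scaled by the median of ratios and tested as log2(value + 0.5), so that fold changes of low genes are understated, with limma 3.58.1 in R 4.3.3, an intensity trend and phase as the only term. Each p was adjusted by the Benjamini-Hochberg method over all genes tested. Tables were built in Python 3.11.15 (scipy 1.17.1 for permutation tests, pandas 2.3.3, numpy 2.4.6) and drawn with matplotlib 3.10.9. The design was written for 24 libraries; the pair found to be nearly the same was averaged, which left 23 samples. The genes, lists and tests were chosen with earlier results of these data known. Named were the clock genes, the 10 largest called differences per direction without predicted or pseudogene names, the called members of the other lists or else the most abundant member, and the 5 largest interactions per direction; other members that passed, and genes whose groups did not overlap, were chosen after their values were seen. Positions are from GENCODE M21.

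The scripts were tested on data with known differences. No library of the kidney after IH was near-identical to one in normoxia (lowest median absolute log2 difference 0.0957 over 576 pairs). Nothing in the sources says that the replicate numbers link the mice of different time points. With phase as the only term, p-values measure the spread within a phase. That spread holds differences between time points as well as between mice. Alternatives covered pseudocounts, filters, scaling, a model of time points, a replicate block, and leaving out libraries, replicates or time points. Leaving out the libraries that stand apart was chosen after seeing the data. Some genes are not reported here.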

Additional observations from a re-analysis of the deposited data

Results flagged for a closer look

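In 10 named genes there was a difference between day and night that was not the same in kidney and liver by the interaction test in limma (adjusted p of 0.05 over 6616 genes). The log2 differences are given as kidney minus liver. They were negative for Clec2h (-1.31), Junb (-1.07), Casp6 (-0.94), Slc8b1 (-0.87) and Flcn (-0.82), which were higher in the day in the liver by between 0.79 and 1.85. They were positive for Tsku (1.42), H1f2 (1.03), Fmo5 (0.97), Lrrc58 (0.81) and Palld (0.74), which were lower in the day in the liver by log2 differences between -1.22 and -0.57. In the joint fit none of the 10 passed in the kidney alone, where the highest value was that of Clec2h, 0.54 with an adjusted p of 0.17 by limma; in the fit of the kidney alone Clec2h had an adjusted p of 0.017 without reaching 1.5 times.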

How the results depend on the processing

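Of 28 named genes called, 8 were called under every alternative: Cry1, Nr1d1, Nfil3, Tmem86a, Slc6a19, Mt2, Sdf2l1 and H3c15. The 43 calls became 66 with a minimum mean TPM of 1, 596 with no fold limit, and between 14 and 66 when 1 replicate number or time point was left out; it was 14 without replicate 1 and 17 without 7:30. The 596 genes past the adjusted p became 1008 on TPM as deposited, 192 in the middle of each phase, 273 without the libraries with adrenal transcripts, and between 78 and 1491 when 1 replicate number or time point was left out. With the replicate block 43 genes were called, 42 of them the same. Deviations of same-numbered libraries had a median correlation of 0.14, against -0.06 for other numbers; 56.3% of pairs were above 0.1, but the lowest was -0.42, so the numbers were not taken as pairs. The 54 genes that differed between kidney and liver became 259 on TPM as deposited, 121 with the replicate block, 109 with means per time point, and between 2 and 3 without 1 replicate number (56 without 7:30 replicate 2 and 19:30 replicate 1). The interaction with IH gave 0 genes under every alternative, with the replicate block too. The difference in genes detected, 88.9, became -133 for genes of at least 1 TPM (p = 0.32, permutation test) and ran from -46.4 to 341 without 1 replicate number. The causes of these changes were not tested.

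The sign changed under some alternative in 22 named genes, of which 0 were called. On TPM as deposited it did in Cry2 (-0.080), Csnk1a1 (-0.054), Csnk1e (-0.093), Csnk2a1 (-0.068), Csnk2b (-0.0080), Fbxw11 (-0.059), Usp2 (-0.023), Usp7 (-0.088), Slc22a12 (-0.036), Atp6ap2 (-0.050), Fbp1 (-0.018), Me1 (-0.019), Shmt2 (-0.011), Gpx3 (-0.026), Cyp2j5 (-0.065), Casp6 (-0.088) and Palld (-0.087). With means per time point it did in Cry2 (-0.059) and Csnk1e (-0.026), and with the replicate block added in Cry2 (-0.073), Csnk1e (-0.0011), Usp2 (-0.0030), Usp7 (-0.0013) and Palld (-0.016). In the middle of each phase it did in Cry2 (-0.039), Csnk1e (-0.033) and Flcn (0.076), and with the replicate block alone in Srsf2 (0.0051). With all 24 libraries counted Srsf2 was 0.022, and without the near-identical pair Cry2 was -0.017 and Csnk1e -0.028. Without the libraries with adrenal transcripts it changed in Cry2 (-0.10), Csnk1e (-0.031), Fbxw11 (-0.0079), Usp2 (-0.033), Srsf2 (0.014) and Flcn (0.0024), and without the 3 libraries highest in Gm19220 in Csnk1e (-0.0018) and Cyp2j5 (-0.00050). When 1 replicate number, 1 time point, or 7:30 replicate 2 with 19:30 replicate 1 was left out, the values ran for Cry2 from -0.12 to 0.11, Bhlhe40 from -0.29 to 0.037, Csnk1e from -0.041 to 0.044, Csnk2a1 from -0.00025 to 0.045, Fbxw11 from -0.0046 to 0.10, Usp2 from -0.099 to 0.23, Usp7 from -0.010 to 0.036, Slc22a12 from -0.00037 to 0.17, Srsf2 from -0.042 to 0.063, Cyp2j5 from -0.032 to 0.10, Bst2 from -0.14 to 0.0032, mt-Co2 from -0.24 to 0.065, Casp6 from -0.038 to 0.061, Flcn from -0.083 to 0.033 and Palld from -0.086 to 0.11.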
